A study of Mus musculus with 8 samples.

Results

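The circadian clock and output genes described here are 10 genes found by name in the deposited liver table of 55487 genes: Arntl, Clock, Npas2, Per1, Per2, Per3, Nr1d1, Nr1d2, Dbp and Ciart. They are the activators, repressors and a main output factor of the molecular clock. All 10 were found, and 9 passed the filter on low values, an FPKM (fragments scaled to transcript length and to the mapped fragments of the library) of at least 1 in at least 2 libraries. Npas2 did not pass and was not tested. Within the 3 control libraries alone, the output gene Dbp ran from 51.1 to 0.481 FPKM and the activator Arntl from 0 to 4.31, and differences between treatment groups are read against that spread.

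RNA from the livers of male wild-type C57BL/6N mice was sequenced in 8 libraries. Every mouse received a weekly injection into the abdominal cavity, either of corn oil or of CCl4, a liver toxin. The diet was normal chow with tap water, or a western diet made of high-fat food and drinking water with 23.1 g/L fructose and 18.9 g/L glucose. By the labels there were 3 libraries of normal diet + oil (ND oil), 2 of western diet + oil (WD oil), 2 of normal diet + CCl4 (ND CCl4) and 1 of western diet + CCl4 (WD CCl4). The CCl4 dose, the duration, the age of the mice, their feeding state and the time of day at collection are not given in the sources used here. Whether the libraries of a group stem from different mice is not stated in the labels. The p-values below therefore rest only on how far these libraries spread, and that spread may be technical.

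The mammalian clock is a transcriptional loop that runs in nearly every cell, hepatocytes included, with a period of about a day. ARNTL (BMAL1) pairs with CLOCK or its relative NPAS2 and switches on genes with E-boxes, among them the Period genes, the REV-ERB genes Nr1d1 and Nr1d2, Ciart and Dbp. The Period and CIART proteins then hold the pair back, and the REV-ERBs repress Arntl, Clock and Npas2, so that in liver the transcripts of the activators peak when those of the other genes are low. A liver transcript of this set can therefore differ many-fold between hours of the day in untreated animals.

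Promoter sequences were taken from RefSeq on GRCm38.p6 for 9 of the 10 genes, as the 250 bases before each annotated start site, to show the sites through which these genes are known to be linked. Both strands were searched for the E-box CACGTG, the D-boxes TTATGTAA and TTACGTAA, and the half-site AGGTCA that REV-ERB proteins bind. The E-box stood in the windows of Ciart and Per1 and in 6.02% of all 32851 windows of this length. TTATGTAA stood in the window of Per3 and in 0.819% of all windows, while TTACGTAA stood in no window of these genes and in 0.113% of all. AGGTCA stood in windows of Clock, Per1 and Nr1d2, and in 14.0% of all. A match is a run of letters, and its use was not measured. The windows below are those with the E-boxes and D-boxes, written 5′ to 3′ on the gene's strand with the motifs in capitals. The Ciart window (chr3:95882229-95882478, minus strand) has E-boxes starting 116, 58 and 44 bases before the start site. That of Per3 (chr4:151044666-151044915, minus strand) has D-boxes, the kind of site bound by DBP and its relatives, at 205 and 158 bases. That of Per1 (chr11:69098699-69098948, plus strand) has an E-box at 166 bases and AGGTCA on the other strand at 137 bases.
Ciart: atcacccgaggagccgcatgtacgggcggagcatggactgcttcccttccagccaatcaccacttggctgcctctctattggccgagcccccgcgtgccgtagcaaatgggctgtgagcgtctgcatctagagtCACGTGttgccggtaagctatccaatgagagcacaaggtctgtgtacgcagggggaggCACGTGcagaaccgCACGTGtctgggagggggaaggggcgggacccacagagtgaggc
Per3: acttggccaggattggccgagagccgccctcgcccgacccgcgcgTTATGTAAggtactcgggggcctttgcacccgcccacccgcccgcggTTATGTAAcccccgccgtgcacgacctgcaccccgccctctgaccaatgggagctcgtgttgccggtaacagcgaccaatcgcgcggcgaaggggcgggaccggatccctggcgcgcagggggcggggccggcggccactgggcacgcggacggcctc
Per1: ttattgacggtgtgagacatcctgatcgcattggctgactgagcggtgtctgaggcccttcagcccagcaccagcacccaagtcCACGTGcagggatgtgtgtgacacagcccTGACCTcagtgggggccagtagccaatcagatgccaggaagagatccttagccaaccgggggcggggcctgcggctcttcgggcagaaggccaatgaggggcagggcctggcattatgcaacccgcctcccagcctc

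Before the members are compared between groups, 1 library has to be described, singled out after its values were seen. ND oil library 3 held the lowest value of all 8 libraries for 7 of the 9 tested members (Per1, Per2, Per3, Nr1d1, Nr1d2, Dbp and Ciart) and the highest for the other two, Arntl and Clock. Over all tested genes this library was the lowest in 35.9% and the highest in 4.26%. On the log2(FPKM + 1) scale it lay at least 2-fold below both other ND oil libraries in 4 of 9 members (Per3, Nr1d2, Dbp and Ciart), against 0.851% of all tested genes. It lay at least 2-fold above both in 1 member, Arntl, against 0.547%. The directions of all 10 members in this library relative to the other two were kept after removing the Mup family and rescaling, and under median-of-ratios scaling. Per1 was lowest in this library in deposited FPKM alone. WD CCl4 was lower at 3.27 against 3.34 without the Mup family, and at 3.27 against 3.38 under median-of-ratios scaling. The Mup family, major urinary proteins of hepatocytes, held 32.5% of the FPKM sum in ND oil library 3. It held 16.9% and 22.1% in ND oil libraries 1 and 2, and 2.80% to 10.04% in the other groups. The part that the time of collection had in any difference below was not tested. Where 1 or 2 libraries stand for a group, a difference in the hour of collection cannot be told apart from one of treatment.

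Libraries carried the defining transcripts of liver: 5 of 6 hepatocyte markers were listed and above 0 everywhere, with a summed level of 29055 to 37376 FPKM in ND oil, 26952 to 34663 in WD oil, 44299 to 52357 in ND CCl4 and 32556 in WD CCl4. Plin1 and Adipoq (fat cells), Prss1 and Ins2 (pancreas) and Ms4a1 (B cells) were listed at 0 in every library. Other markers on those lists were not: Cfd (fat cells) was at 23.3 and 18.8 FPKM in WD oil, 0 to 0.811 in ND oil and 0 in the CCl4 libraries. Cela1 (pancreas) was at 13.9 to 49.9 FPKM and Cd79a (B cells) at 0.372 to 1.24 over the 8 libraries. The part of these cells in the clock values was not tested. The 8 macrophage markers summed to 33.3 to 72.0 FPKM in ND oil, 277 to 505 in WD oil, 66.5 to 175 in ND CCl4 and 182 in WD CCl4. The 4 neutrophil markers reached 417 FPKM in WD CCl4 and at most 37.5 elsewhere. In such bulk tissue, fewer cells of a type and less RNA per cell cannot be told apart. Library sums of FPKM ran from 514832 to 612747, with 12531 to 14843 genes above 0, and the depth behind a value is unknown. In each library the smallest nonzero value was 0.252 to 0.318 FPKM, so a gene listed at 0 may be below such a level.

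Among the activators, Arntl (chr7:113207465-113314126, plus strand, GRCm38), the partner without which the loop does not run, was listed at 0 in ND oil libraries 1 and 2 and at 4.31 FPKM in library 3. It stood at 1.20 and 0.320 FPKM in WD oil, 0.542 and 0.323 in ND CCl4, and 1.04 in WD CCl4. The highest and the lowest values of the series were thus both in ND oil, which overlapped every other group. Without ND oil library 3, left out after its values were seen, the remaining 2 ND oil libraries at 0 lay below all 5 treated libraries. The share of all tested genes that did so was not computed. The values of WD oil library 2 and ND CCl4 library 2 were close to the smallest nonzero ones there, 0.275 and 0.318 FPKM.

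Clock (chr5:76209868-76304792, minus strand) encodes the DNA-binding partner of ARNTL. It was at 1.36, 1.36 and 3.16 FPKM in ND oil, 2.04 and 0.795 in WD oil, 1.89 and 1.28 in ND CCl4 and 1.91 in WD CCl4. ND oil library 3 was 2.33-fold above the mean of the other ND oil libraries. With it set aside, WD oil and ND CCl4 each still overlapped ND oil. WD CCl4 lay within the range of WD oil. In deposited FPKM it was above both remaining ND oil libraries and just above both ND CCl4 libraries. Npas2 (chr1:39193731-39363236, plus strand), which can stand in for CLOCK, was listed at 0 in 7 libraries and at 1.19 FPKM in ND oil library 3. No fold is given against 0. The 3 activators were thus all highest in the same library.

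The Period genes encode repressors that bind the activator complex. Per1 (chr11:69095217-69109960, plus strand) was at 4.40, 6.69 and 2.83 FPKM in ND oil (mean 4.64 ± 1.94, SD, n = 3), 6.79 and 6.74 in WD oil (6.76 ± 0.0386, n = 2), 5.93 and 6.83 in ND CCl4 (6.38 ± 0.637, n = 2) and 3.40 in WD CCl4. In deposited FPKM both WD oil values lay just above the highest ND oil value, while ND CCl4 overlapped ND oil. After removing the Mup family and rescaling, and under median-of-ratios scaling, ND oil library 2 (7.12 and 7.18) lay above both WD oil libraries (6.71 and 6.35, and 6.27 and 6.37). Per2 (chr1:91415982-91459324, minus strand) was at 1.71, 2.85 and 1.30 FPKM in ND oil (1.95 ± 0.800, n = 3), 2.02 and 2.80 in WD oil (2.41 ± 0.557, n = 2), 2.93 and 3.17 in ND CCl4 (3.05 ± 0.168, n = 2) and 1.74 in WD CCl4. In deposited FPKM both ND CCl4 values were above every other library, the nearest being ND oil library 2. ND CCl4 library 1 was below that library without the Mup family (2.85 against 3.03) and under median-of-ratios scaling (2.44 against 3.05).

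Per3 (chr4:151003652-151044665, minus strand), the Period gene whose promoter window with 2 D-boxes is shown above, was at 1.14 and 1.94 FPKM in ND oil libraries 1 and 2 and listed at 0 in library 3. It was at 0.917 and 1.94 FPKM in WD oil, 3.96 and 3.58 in ND CCl4 and 1.29 in WD CCl4. Both ND CCl4 libraries stood clear above all others, and WD oil overlapped ND oil. Per3 lies within the span of Camta1 on the same strand, an overlap of 41014 bases, and Camta1 was at 0.431 to 1.26 FPKM. The way fragments in such a region were assigned is not given in the sources.

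Nr1d1 and Nr1d2 encode REV-ERB alpha and beta, nuclear receptors that repress the activator genes. Nr1d1 (chr11:98767932-98775333, minus strand) was at 14.3, 21.5 and 7.64 FPKM in ND oil (14.5 ± 6.91, n = 3), 15.9 and 11.3 in WD oil (13.6 ± 3.25, n = 2), 11.6 and 23.4 in ND CCl4 (17.5 ± 8.32, n = 2) and 14.8 in WD CCl4. All groups overlapped, and the 2 ND CCl4 libraries stood near opposite ends of the range. Nr1d1 shares 1075 bases with Thra on the opposite strand, which was at 2.95 to 5.21 FPKM, and the sources used here do not say whether counting used the strand. Nr1d2 (chr14:18204054-18239127, minus strand) was at 11.1, 11.0 and 4.15 FPKM in ND oil (8.77 ± 4.01, n = 3), 7.70 and 9.29 in WD oil (8.49 ± 1.12, n = 2), 14.6 and 13.9 in ND CCl4 (14.2 ± 0.508, n = 2) and 8.88 in WD CCl4. In deposited FPKM both ND CCl4 values lay above every other library, and ND oil library 3 lay below every other. Under median-of-ratios scaling ND CCl4 library 1 (12.1) was below ND oil library 1 (12.5).

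Ciart (chr3:95878503-95882251, minus strand), also called CHRONO, encodes a repressor of the ARNTL and CLOCK pair and has the 3 E-boxes shown above. It was at 7.72 and 5.57 FPKM in ND oil libraries 1 and 2 and listed at 0 in library 3. It was at 0.975 and 10.6 FPKM in WD oil, 11.9 and 22.0 in ND CCl4 and 2.63 in WD CCl4. The 2 WD oil libraries differed 10.9-fold, with library 1 near the bottom of the series and library 2 above both higher ND oil values. Ciart overlaps C920021L13Rik on the opposite strand over 3749 bases, a transcript at 0 to 1.94 FPKM.

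Dbp (chr7:45705088-45710203, plus strand) is a direct target of the activators and carries the rhythm to liver metabolism through D-boxes. It was at 51.1, 47.8 and 0.481 FPKM in ND oil, 19.3 and 65.7 in WD oil, 60.1 and 91.0 in ND CCl4 and 43.6 in WD CCl4. ND oil libraries 1 and 2 averaged 103-fold more Dbp than library 3, and WD oil library 2 held 3.41-fold more than library 1. In deposited FPKM ND CCl4 lay above ND oil without overlap, but under median-of-ratios scaling ND CCl4 library 1 was below ND oil libraries 1 and 2. WD oil library 2 stood between the 2 ND CCl4 libraries. Dbp shares 737 bases with Sphk2 on the opposite strand, which was at 7.30 to 12.8 FPKM in all libraries, ND oil library 3 (8.42) included.

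**Figure D1:**
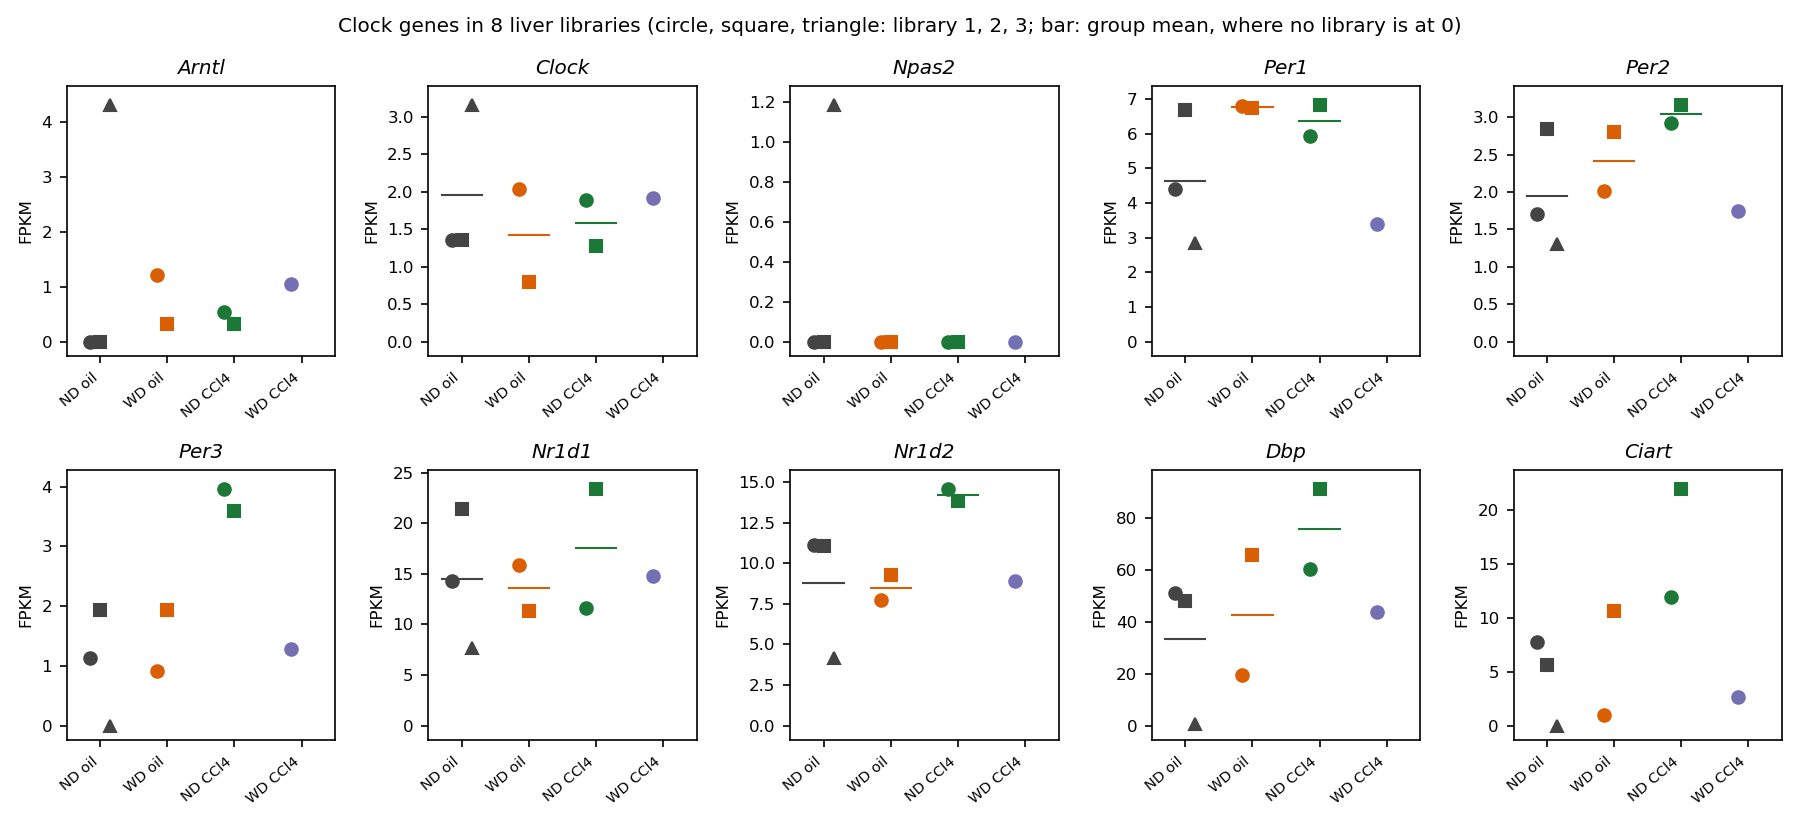
FPKM of the 10 clock and output genes in each library (y axis, linear, from 0) by group (x axis), with circles, squares and triangles for libraries 1, 2 and 3 and a bar at the mean of groups of 2 or 3 libraries for genes with no library at 0. The triangle, ND oil library 3, is the highest point for Arntl (4.31 FPKM), Clock (3.16) and Npas2 (1.19) and the lowest for the other 7 genes.

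How far apart libraries of the same group stood was then described for the members beside all tested genes. ND oil libraries 1 and 2 were at least 2-fold apart, on the log2(FPKM + 1) scale, in 0 of 9 members and in 1.88% of all tested genes. Libraries 1 and 3 were that far apart in 5 of 9 members (background 4.21%), and libraries 2 and 3 in 7 of 9 (2.27%). The 2 WD oil libraries were so in 2 of 9, Ciart and Dbp (2.28%), and the 2 ND CCl4 libraries in 0 of 9 (6.77%). The members' median absolute log2 difference was 0.41 against 0.19 over all tested genes for ND oil libraries 1 and 2, 0.62 against 0.22 for WD oil, and 0.22 against 0.27 for ND CCl4. With ND oil library 3 it was 1.10 against 0.27 (library 1) and 1.38 against 0.19 (library 2).

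The residual SD of the fit, which is the spread of log2(FPKM + 1) within groups, was 2.17 for Dbp, 1.53 for Ciart and 1.02 for Arntl. Among all tested genes these stood at percentiles 99.9, 99.8 and 99.1. For Nr1d1, Per3, Nr1d2 and Clock it was 0.62, 0.61, 0.51 and 0.45, at percentiles from 89.2 to 95.8, and for Per1 and Per2 it was 0.36 and 0.29 (81.1 and 70.2). Without ND oil library 3 the residual SD was 1.11 for Ciart (percentile 99.3) and 0.74 for Dbp (97.6), 0.31 for Arntl (75.9) and 0.10 for Nr1d2 (11.6). It was 0.49 for Nr1d1 (91.2), 0.34 for Clock (79.5), 0.32 for Per3 (76.4), 0.25 for Per2 (62.0) and 0.22 for Per1 (53.9). Ciart and Dbp thus stayed among the most variable genes, and Nr1d2 did not. For these 2 genes the largest difference within a group in that fit was that between the WD oil libraries (log2 -2.56 and -1.72, library 1 minus 2). It is part of this SD and not a separate observation.

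The difference between the activators and the other members varied from library to library. The mean log2(FPKM + 1) of Arntl, Clock and Npas2 minus that of the other 7 members was 0.55 in ND oil library 3, the only library with the activators above. It was -1.66 in WD oil library 1 and -1.92 in WD CCl4, and between -2.64 and -3.29 in the other 5 libraries. WD oil library 1 and WD CCl4 library 1 were thus next in order after ND oil library 3, and ND CCl4 library 2 was at the far end. The 2 WD oil libraries were 2nd and 7th of the 8, so the order did not follow the groups.

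Over the 8 libraries, all 14 pairs of an activator (Arntl or Clock) with one of the other 7 members had a Pearson r below 0 (median -0.68, log2 scale), and all 21 pairs among those 7 had an r above 0 (median 0.75). Without ND oil library 3, 13 of the 14 were still below 0 (median -0.33) and 21 of 21 above 0 (median 0.59, lowest 0.068). Arntl and Clock had r = 0.85 over 8 libraries and 0.65 over 7. The signs over 8 libraries lean on ND oil library 3, the highest for both activators and the lowest for the other 7. The share of such signs among pairs of all tested genes was not computed. These values describe 8 libraries in 4 groups, whose points also share each library's composition.

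**Figure D2:**
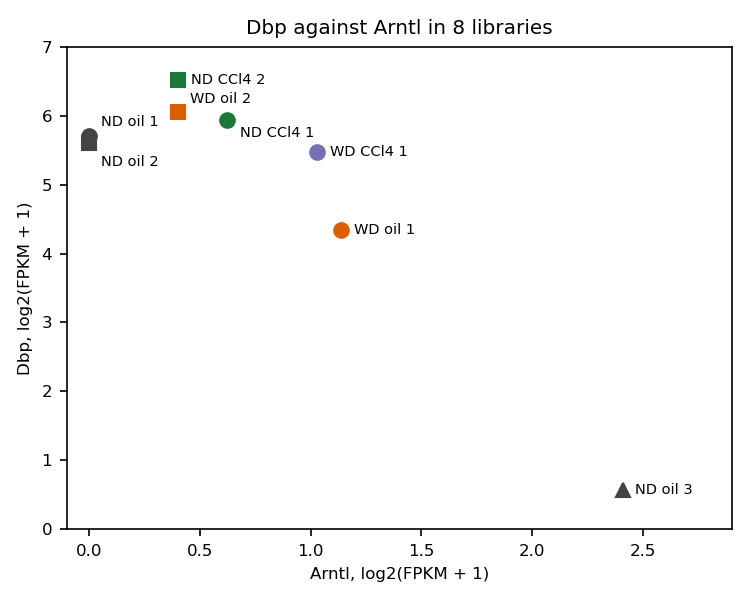
Dbp against Arntl, both as log2(FPKM + 1), with 1 point per library, colour for group and shape for library number. ND oil library 3 lies alone at the lower right (Arntl 4.31 and Dbp 0.481 FPKM), WD oil library 1 and WD CCl4 library 1 lie between, and the other 5 libraries lie at the upper left.

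By the rule set for these profiles, the genes most like Arntl over the 8 libraries, predicted genes and pseudogenes left out, included Smarcd1 (Pearson r of log2 values 0.943), the miRNA gene Mir7026 (0.929), Chka (0.926) and Tecpr2 (0.919). Without ND oil library 3, Chka had r = 0.997 and Smarcd1 0.971, while Mir7026 had 0.819 and Tecpr2 0.830. The genes for Arntl, and those for Dbp below, were picked on these same libraries, so such values are not a separate check. Arntl was then at 0 in both ND oil libraries left, and near the smallest nonzero values in WD oil library 2 and ND CCl4 library 2. Chka, which encodes a choline kinase, was at 17.1 FPKM in ND oil library 3 and at 2.72 and 3.00 in the other two, at 13.3 and 5.16 in WD oil, 6.34 and 5.35 in ND CCl4 and 10.9 in WD CCl4. Like Arntl, it was highest in ND oil library 3, then WD oil library 1, then WD CCl4. Least like Arntl were Scrn2 (-0.951), Ndufb8 (-0.949) and Coq10b (-0.923).

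The 5 genes most like Dbp were Prdx6 (0.972), Ift27 (0.968), Usp50 (0.965), Slc22a18 (0.965) and Tmem9 (0.960), and without ND oil library 3 these had values from 0.613 to 0.917. Among the least like it were Sdf2l1 (-0.946) and Ddc (-0.910).

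The first comparison between groups was WD oil against ND oil, the western diet without CCl4. With limma and Benjamini-Hochberg adjustment over 11514 genes, 0 of 9 members passed an adjusted p of 0.05, against 4.41% of all tested genes. At an unadjusted p below 0.05 the count was also 0, against 23.3%. The members' median log2 fold change was 0.23, and that of all tested genes 0.22. They were -0.08 and 0.18 without ND oil library 3. Under median-of-ratios scaling they were 0.054 and 0.0027. The libraries did not overlap, with WD oil above, in 1 member (Per1), against 40.7% of all tested genes. They overlapped in all 9 under both other scalings. Fold changes are on the log2(FPKM + 1) scale, which understates those of low genes.

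Per1 had a log2 fold change of 0.52 ± 0.27 (SE, adjusted p = 0.293, limma). Dbp had the largest estimate and the widest interval, 1.24 with a 95% interval from -2.03 to 4.52 (limma adjusted p = 0.631). Without ND oil library 3 it was -0.46 (-1.66 to 0.75). Ciart went from 0.31 to -0.66, Per3 from 0.36 to -0.08, Nr1d1 from 0.01 to -0.36 and Nr1d2 from 0.06 to -0.35, and Arntl from -0.03 to 0.77. Of the 9 estimates, 6 thus had the opposite sign without this library, and 0 of 9 passed limma's adjusted threshold there either (1.02% of all tested genes did).

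CCl4 under the normal diet was compared as ND CCl4 against ND oil, with the same 3 control libraries. Again 0 of 9 members passed (limma, adjusted over 11514 genes), against 1.42% of all tested genes. At an unadjusted p below 0.05 there was 1 member, Per3, against 22.8%. The members' median log2 fold change was 0.49 and that of all tested genes 0.26. Without ND oil library 3 they were 0.33 and 0.23, and thus closer together. Under median-of-ratios scaling, with that library kept, they were 0.26 and 0.0026, so about as far apart as in deposited FPKM. ND CCl4 lay above ND oil without overlap in 5 of 9 members (Per2, Per3, Nr1d2, Dbp and Ciart), against 41.8% of all tested genes. After removing the Mup family it did so in 4 members, all but Per2 (24.2% of all genes compared), and under median-of-ratios scaling in 2, Per3 and Ciart (15.2%). These counts are descriptions and not a result about these genes.

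Per3 had a log2 fold change of 1.37 ± 0.42 (SE, 95% interval 0.40 to 2.34, limma adjusted p = 0.137). Without ND oil library 3 it was 0.93 (0.29 to 1.56, limma adjusted p = 0.203), and it stayed above 0 in every alternative that was run (0.93 to 2.61). Dbp had 2.27 ± 1.42 (limma adjusted p = 0.338) and 0.57 without that library, and Ciart had 2.16 ± 1.00 (0.239) and 1.19. Nr1d2 was at 0.74 ± 0.36 (limma adjusted p = 0.252) and at 0.33 without library 3, and Per2 at 0.49 ± 0.23 (0.251) and 0.33. The estimates for these 5 members thus kept their direction and were smaller without the library. Per1 (0.44), Nr1d1 (0.29), Clock (-0.15) and Arntl (-0.29) were nearer 0, and the last 3 changed sign when it was left out (-0.08, 0.12 and 0.51). None of the 9 passed limma's adjusted threshold without it, against 0.660% of all tested genes. The summed hepatocyte markers were also higher in both ND CCl4 libraries than in any ND oil library, a sum carried mostly by Alb. Apoa1, another of these markers, was at 7732 and 4834 FPKM in ND CCl4 against 10005, 7210 and 6810 in ND oil. The part of hepatocytes in these values was not tested.

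WD CCl4, both treatments together, was 1 library, assumed in the fit to vary like the other groups. Against ND oil 0 of 9 members passed limma's adjusted threshold (0.929% of all tested genes) and 0 of 9 an unadjusted p of 0.05 (15.3%), with a median log2 fold change of 0.12 against 0.19 for all. The medians were -0.23 and 0.16 without ND oil library 3. Dbp had 1.52 with a 95% interval from -2.62 to 5.66, and -0.18 without ND oil library 3. Arntl had 0.23 (-1.77 to 2.22), and without library 3, against 2 libraries at 0, 1.03 (0.15 to 1.91, limma adjusted p = 0.312). The other 7 estimates lay between -0.30 and 0.31. None of the 9 passed the adjusted threshold without library 3 (0.460%). Neutrophil markers were highest in this library (417 FPKM), and their part was not tested.

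The effects of the single treatments were compared with each other as WD oil against ND CCl4, a contrast without the ND oil libraries, although these enter its estimate of the spread. No member passed limma's adjusted threshold (0 of 9, against 0.617% of all tested genes), and 0 of 9 had an unadjusted p below 0.05 (11.1%). The members' median was -0.28 and that of all tested genes -0.04. WD oil lay below ND CCl4 without overlap in 4 members (Per2, Per3, Nr1d2 and Ciart), against 22.8% of all, and under median-of-ratios scaling in 2 (Per3 and Nr1d2), against 20.5%. Per3 had -1.01 ± 0.46 (SE, limma adjusted p = 0.471), Nr1d2 -0.69 ± 0.39 (0.568), Ciart -1.84 ± 1.10 (0.586) and Dbp -1.03 ± 1.55 (0.854). Without WD oil library 1 the estimates were -0.57 for Ciart and -0.17 for Dbp, and without WD oil library 2 they were -3.12 and -1.89. With the spread estimated without ND oil library 3 the limma adjusted p-values of these genes were 0.201, 0.168, 0.422 and 0.517, in the same order. In that fit 3 of 9 members (Per3, Nr1d2 and Ciart) had an unadjusted p below 0.05. In the fit without that library the count was 1 of 9 in each of the 3 contrasts with ND oil. The share of all tested genes at that threshold was not computed for it. The 3 of 9 thus has no background and is not a result about these genes. The intervals of Dbp and Ciart, -4.62 to 2.56 and -4.38 to 0.69, leave large differences undetected, and a p that misses the threshold does not show that the groups were alike.

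**Figure D3:**
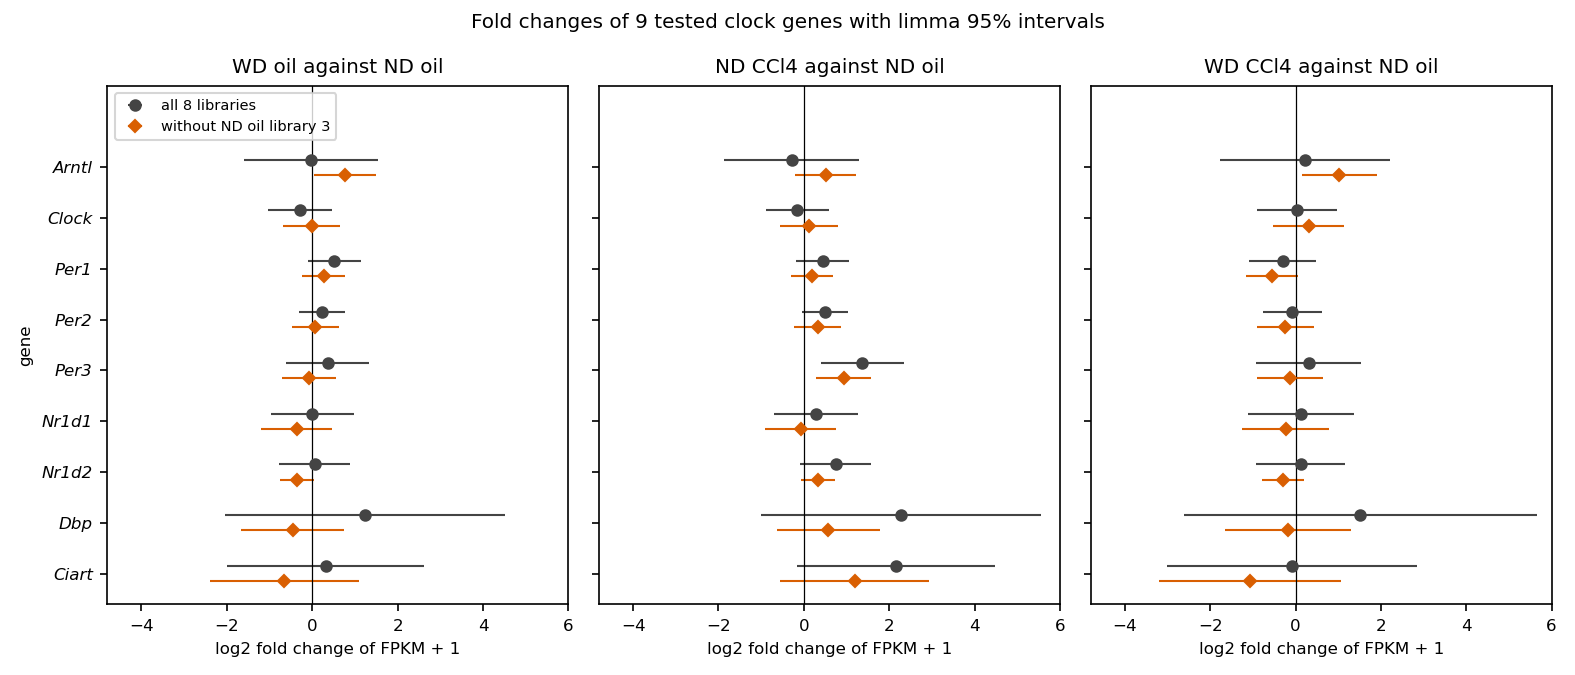
Log2 fold changes of FPKM + 1 (x axis) with limma 95% intervals for the 9 tested members (y axis) in the 3 comparisons with ND oil, from all 8 libraries (circles) and without ND oil library 3 (diamonds). The intervals of Dbp and Ciart are the widest and narrow without that library, and the Dbp estimate for WD oil moves from 1.24 to -0.46.

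Other genes of the loop were given from a list of 15, of which 11 were tested. None passed in any of the 4 contrasts (limma, adjusted over all genes), with 2, 2, 0 and 1 at an unadjusted p below 0.05 in the order given above. Over all tested genes that threshold was passed by 23.3%, 22.8%, 15.3% and 11.1%. Nfil3, a repressor at D-boxes that is known to run opposite to DBP, was at 7.11, 4.85 and 13.2 FPKM in ND oil, 13.1 and 14.7 in WD oil, 3.62 and 5.96 in ND CCl4 and 7.56 in WD CCl4. Its 3 highest libraries were both of WD oil and ND oil library 3. WD oil minus ND CCl4 was 1.39 ± 0.39 (SE, log2, limma adjusted p = 0.209).

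Cry1, a late repressor of the loop, was at 2.20 FPKM in ND oil library 3 and 0.886 to 1.48 elsewhere. Cry2 was at 2.37 FPKM there and 3.15 to 6.62 elsewhere. Bhlhe40, an E-box repressor, was at 20.3 to 36.5 FPKM over all libraries, and its groups overlapped. Its relative Bhlhe41 was at 0 to 0.676 FPKM and was not tested.

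All 15 genes of the list of rhythmic liver outputs were tested, and 2 passed, both in ND CCl4 against ND oil. At an unadjusted p below 0.05 there were 1, 9, 3 and 5 of the 15 in the 4 contrasts. The shares of all tested genes at that threshold were 23.3%, 22.8%, 15.3% and 11.1%. The median log2 fold change of the list in ND CCl4 was 0.98, beside 0.26 for all tested genes. ND oil library 3 held the lowest value for 8 of the 15 (35.9% of all tested genes) and the highest for 1 (4.26%). The list's median without that library was not computed. Nampt, the enzyme that recycles NAD, had a log2 increase of 1.16 ± 0.22 (limma adjusted p = 0.0497), from 4.60, 6.00 and 3.80 FPKM to 13.4 and 10.3. The share of all tested genes that rose was 1.02%. The call of Nampt was lost without any 1 library other than ND CCl4 library 2 (limma adjusted p = 0.0507 to 0.296), at 0.122 without ND oil library 3. Elovl3, a fatty acid elongase, fell (log2 change -3.95 ± 0.59, limma adjusted p = 0.0259), from 109, 63.9 and 265 FPKM to 5.13 and 9.43, where 0.400% of all tested genes fell. It was highest in ND oil library 3, and without that library the log2 fold change was -3.40 (limma adjusted p = 0.0284). Its call was lost without ND oil library 1 (0.0632), WD oil library 1 (0.0643) or 2 (0.0638), or ND CCl4 library 1 (0.199).

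The D-box factors Tef and Hlf, relatives of Dbp, did not pass. Tef was at 15.4, 17.3 and 5.38 FPKM in ND oil, 9.35 and 15.9 in WD oil, 27.0 and 30.7 in ND CCl4 and 15.6 in WD CCl4. Its lowest library was thus ND oil library 3, followed by WD oil library 1, as for Dbp. Usp2, a ubiquitin protease under clock control, had the same 2 lowest libraries (0.467 and 1.22 FPKM), with 11.4 and 16.6 in ND CCl4, a log2 difference of 1.97 ± 0.72 from ND oil (limma adjusted p = 0.177). Wee1, a cell cycle kinase with E-boxes, was listed at 0 in ND oil library 3, at 1.12 and 0.916 FPKM in the other two, and at 4.14 and 2.17 in ND CCl4 (1.34 ± 0.38, limma adjusted p = 0.125). Hlf ranged from 3.34 FPKM in ND oil library 3 to 6.71 in ND CCl4 library 1.

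**Figure D4:**
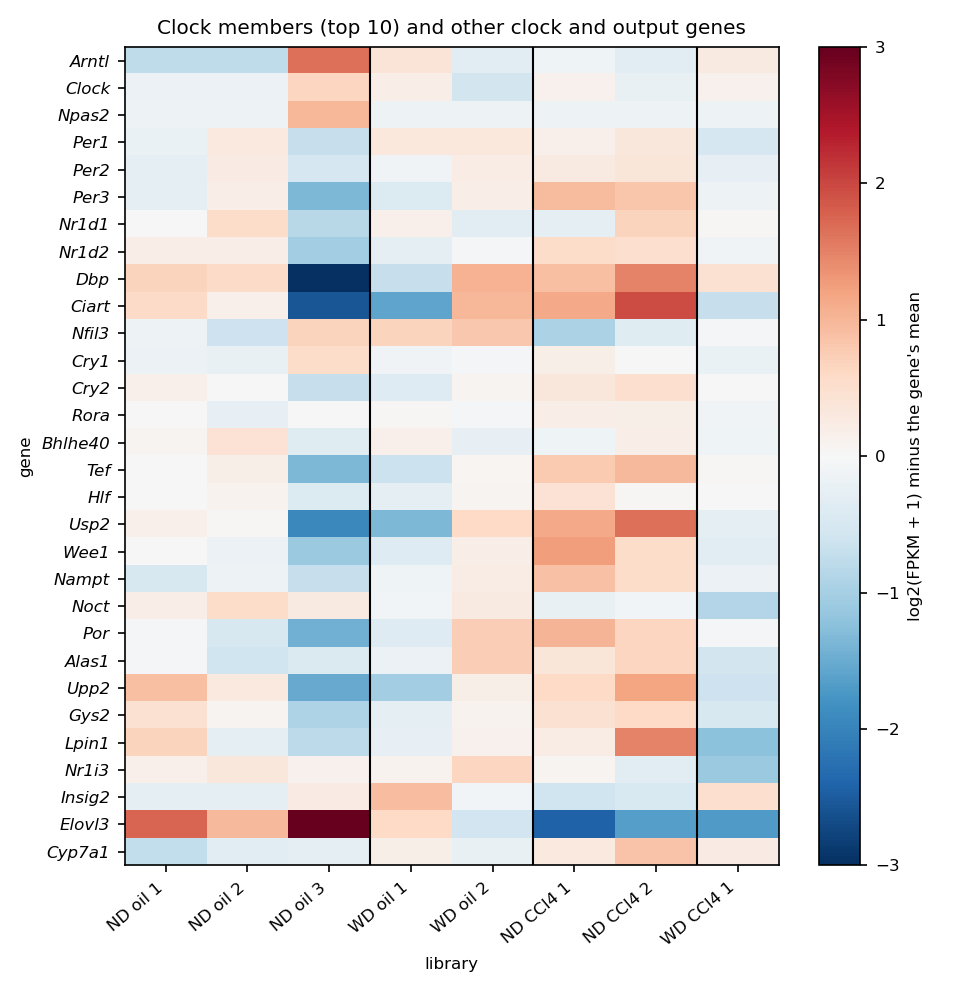
Heat map of log2(FPKM + 1) minus each gene's mean over the 8 libraries (colour, limited to ±3) for the 10 members (top) and 20 other clock and output genes (rows) in the 8 libraries (columns, groups divided by lines). ND oil library 3 is low for Dbp, Ciart, Per3, Tef and Usp2 and high for Arntl, Clock, Nfil3 and Elovl3, and WD oil library 1 has the same direction for Arntl, Dbp, Ciart, Tef and Usp2 with smaller differences.

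Other lists were set beside ND oil library 3 because food, stress hormones and body temperature also act on these genes. At least 2-fold below both other ND oil libraries were 4 of 15 output genes (Tef, Usp2, Gys2 and Upp2), and 1 was above (Elovl3). None of 7 glucocorticoid-responsive and none of 10 fasting-induced genes were so in either direction. Over all tested genes 0.851% were below and 0.547% above. With such shares, lists this short can hold none whatever the state of the animals. Of 7 feeding-induced genes 1 was below, Thrsp, at 136 FPKM against 764 and 450. Of 9 temperature-responsive genes 4 were above, the heat shock genes Hspa1a, Hspa1b, Hsp90aa1 and Hsph1. Hspa1a was at 3.92 FPKM there against 1.12 and 1.39, and at 3.60 and 3.71 in WD oil. The part of feeding, temperature or stress in the clock values was not tested.

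Between groups, 1 of 7 glucocorticoid-responsive genes and 1 of 7 feeding-induced genes passed. In ND CCl4 against ND oil 3 of the 7 glucocorticoid-responsive estimates were above 0 and 4 below. Their median log2 fold change was -0.13, beside 0.26 for all tested genes. An unadjusted p below 0.05 was reached by 3 of the 7, in a contrast where 22.8% of all tested genes reached it. Of all tested genes 1.02% passed the adjusted threshold there and rose. Fkbp5, which encodes a chaperone of the glucocorticoid receptor, rose in ND CCl4 (log2 increase 2.63 ± 0.38, limma adjusted p = 0.0250), from 4.20, 2.69 and 2.88 FPKM to 28.8 and 21.9. It did not pass without ND oil library 2 (limma adjusted p = 0.0938) or 3 (0.0684), or without ND CCl4 library 1 (0.178). The lipid droplet gene Pnpla3 rose in WD oil against ND oil by 1.95 ± 0.36 (limma adjusted p = 0.0298, where 3.81% of all tested genes rose) and was higher than in ND CCl4 by 2.68 ± 0.39 (0.0317, where 0.408% were higher). Pnpla3 was at 8.68 and 4.88 FPKM in WD oil and at 0.859, 1.95 and 0.343 in ND oil. The first call was lost without ND oil library 1 (limma adjusted p = 0.0798) or 3 (0.0742) or either WD oil library (0.170 and 0.205). The second was lost without any 1 of the 4 libraries compared (0.0649 to 0.271). The 9 temperature-responsive and 10 fasting-induced genes had none that passed in any of the 4 contrasts (limma), with 2, 2, 0 and 1, and 4, 3, 3 and 1, at an unadjusted p below 0.05 (23.3%, 22.8%, 15.3% and 11.1% of all tested genes).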

How the data were processed

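Liver RNA-seq libraries, 8 in number, were compared in 4 groups taken from the titles in the labels. The authors deposited FPKM values for 55487 genes in each library. The submitters' processing notes name StringTie 2.1.0, HISAT2 2.2.1, cutadapt 3.7 and FastQC 0.11.9, as well as the build GRCm38, without the role of each. Per the labels' protocols, the library kit was TruSeq Stranded mRNA. Counts were not analysed here, so depth is unknown and FPKM carry no counting error. FPKM are shares of a library, so a large family such as Mup can move all other values.

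The 11514 genes that reached an FPKM of 1 in 2 or more libraries were tested on log2(FPKM + 1) with limma 3.58.1 (R 4.3.3), using lmFit, contrasts.fit and a trended eBayes, in 1 fit with a mean per group and no covariates (4 residual and 3.93 prior degrees of freedom). Tests were two-sided, adjusted by Benjamini-Hochberg within each of 4 contrasts over all tested genes, with a threshold of 0.05. The 3 contrasts with normal diet + oil share its libraries, so overlaps of their calls were not computed. The script was tested on simulated data.

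The members and the gene lists were chosen with earlier results of these data known. Named were all members, every list gene that passed (up to 6 per list), the fixed genes Cry1, Cry2, Nfil3, Bhlhe40, Bhlhe41, Tef, Hlf, Wee1 and Usp2, and for Arntl and Dbp the 5 genes with the highest and the 3 with the lowest Pearson r. Some genes that this rule names are not reported here. Heat shock genes, Upp2, Gys2 and Thrsp were named after their values were seen. Coordinates are from GENCODE M21 on GRCm38, and promoters from RefSeq on GRCm38.p6. Tried as alternatives were no filter, a filter at a mean FPKM of 5, a pseudocount of 0.1, a common sum for all libraries, median-of-ratios scaling, removal of the Mup family, eBayes made robust, a block for the replicate number, the compared groups alone, each library left out in turn, and an unadjusted p below 0.05 with a 2-fold change. Per1 and Per2 were left out only for the difference between activators and other members, and that result is not given here.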

Additional observations from a re-analysis of the deposited data

Results flagged for a closer look

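CCl4 minus oil had opposite signs under the 2 diets for Per2 and Nampt, with every library of one comparison on one side and that of the other on the other side in deposited FPKM. For Per2, CCl4 minus oil was 0.49 on the log2 scale under the normal diet and -0.31 under the western diet. Per2 did not pass under the normal diet (limma adjusted p = 0.251), and its ND CCl4 and ND oil libraries overlapped without the Mup family and under median-of-ratios scaling. For Nampt the values were 1.16 and -0.22, and under median-of-ratios scaling WD CCl4 (5.65 FPKM) was above WD oil library 1 (5.61). Both genes were picked by this rule after their values were seen, and the share of all tested genes that met it is not given here. The part of the rule under the normal diet, ND CCl4 above ND oil without overlap, was met by 41.8% of all tested genes. Under the western diet CCl4 has 1 library, and the difference between the diets was not tested.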

How the results depend on the processing

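The members' calls were 0 of those tested in all 4 contrasts under every alternative fit or threshold, except that Per3 alone (1 member) passed an unadjusted p below 0.05 with a 2-fold change in ND CCl4 against ND oil. Over 591 alternative fits of members, the lowest limma adjusted p was 0.0626 (Per3 in that contrast, rescaled to a common sum). The number of all tested genes called ran from 4 to 1148 for WD oil and 18 to 1171 for ND CCl4 against ND oil, 6 to 483 for WD CCl4, and 1 to 122 for WD oil against ND CCl4. Unknown depth limits all low values, and WD CCl4 has 1 library. Nampt was called in 4 of 17 alternatives, Elovl3 in 11, Fkbp5 in 12, and Pnpla3 in 8 of 16 against ND oil and 7 of 16 against ND CCl4. There is no fit without WD CCl4 library 1 for its own contrasts, and genes below a mean FPKM of 5 have no value under that filter.

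No member passed in any fit, so the signs below are of estimates that were not called, and the cause of each change was not tested beyond the libraries named. In WD oil against ND oil, signs changed with a pseudocount of 0.1 for Arntl (1.07), with a common sum for Arntl (0.012), with median-of-ratios scaling for Nr1d1 (-0.24) and Nr1d2 (-0.18), and without the Mup family for the same pair (-0.13 and -0.070). In ND CCl4 against ND oil they changed for Arntl with the lower pseudocount (0.56) and for Nr1d1 with median-of-ratios scaling (-0.016). In WD CCl4 against ND oil they changed for Ciart with the lower pseudocount (0.73). With median-of-ratios scaling and with the Mup family removed they changed there for Clock (-0.12 and -0.078), Nr1d1 (-0.078 and -0.0083) and Nr1d2 (-0.082 and -0.014). In WD oil against ND CCl4 Per1 changed with a common sum (-0.0027).

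Leaving out 1 library at a time, WD oil against ND oil ranged from -0.43 to 0.77 for Arntl, -0.67 to 0.093 for Clock, -0.078 to 0.70 for Per3, -0.36 to 0.33 for Nr1d1, -0.35 to 0.26 for Nr1d2, -0.46 to 2.11 for Dbp and -0.97 to 1.59 for Ciart. ND CCl4 against ND oil ranged from -0.69 to 0.51 for Arntl, -0.32 to 0.12 for Clock and -0.19 to 0.76 for Nr1d1. WD CCl4 against ND oil ranged from -0.17 to 1.03 for Arntl, -0.10 to 0.31 for Clock, -0.24 to 0.13 for Per2, -0.13 to 0.65 for Per3, -0.23 to 0.46 for Nr1d1, -0.29 to 0.33 for Nr1d2, -0.18 to 2.39 for Dbp and -1.06 to 0.50 for Ciart. WD oil against ND CCl4 ranged from -0.11 to 0.62 for Arntl, -0.52 to 0.24 for Clock, -0.013 to 0.16 for Per1 and -0.76 to 0.19 for Nr1d1. Against ND oil, the libraries whose removal changed a sign were ND oil library 3, either WD oil library for the western diet, ND CCl4 library 2 for CCl4, and ND oil libraries 1 and 2 for both together.

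The replicate numbers did not pair the libraries: deviations of libraries with the same number correlated at -0.21 (ND oil and WD oil), -0.08 (ND oil and ND CCl4) and -0.06 (WD oil and ND CCl4). With the number as a replicate block, 0 members and 32, 49, 6 and 55 of all genes were called in the 4 contrasts. ND oil library 3 alone has the number 3, so the block gave it a term of its own. Signs under the block changed in WD oil against ND oil for Arntl (0.77), Per3 (-0.078), Nr1d1 (-0.36), Nr1d2 (-0.35), Dbp (-0.46) and Ciart (-0.66). They changed in ND CCl4 against ND oil for Arntl (0.51), Clock (0.12) and Nr1d1 (-0.079), and in WD CCl4 against ND oil for Nr1d1 (-0.058) and Nr1d2 (-0.26).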
